A study of Homo sapiens with 17 samples.

Results

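The sites described here are listed run-on positions just after an annotated transcript start of a protein-coding gene, most often not the outermost start of that gene. A site of the 4 deposited pausing time tables was taken as a member when it lay 0 to 60 bp downstream of the nearest upstream transcript start on its strand, that start belonging to a protein_coding gene of GENCODE release 29 (GRCh38), on chromosomes 1 to 22 and X. The rule used position alone and no pausing time. It gave 14064 distinct member positions of 158141 in all tables together. The tables made with sarkosyl held 6668 (replicate 1) and 4806 (replicate 2) members, and those made without it 5806 and 3464. Wherever 4 values follow each other below, they stand in this order of tables.

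The cells were HEK293, an established line derived from human embryonic kidney, with no genetic change or drug in the groups used. Polymerases of permeabilised cells ran on for 0.5, 2, 8 or 32 min in a precision run-on buffer with the detergent sarkosyl, or in the same buffer without it. Each time and buffer had 2 replicates, which gave 16 libraries, and the 4 libraries of a buffer and replicate were fitted together by the authors into 1 table. The 17th sample listed, labelled as a treatment, was not analysed here. Read depth is unknown, so no counting interval could be given. No source used here names a unit for the pausing time, and times are given as deposited.

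As background, RNA polymerase II commonly halts shortly after it has started a gene. The negative elongation factor NELF and the factor DSIF hold it there, and the kinase P-TEFb releases it into the gene body. Run-on assays read this step because an engaged polymerase adds labelled nucleotides to the 3′ end of its RNA, and sarkosyl strips many chromatin proteins while engaged polymerases can go on elongating.

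The sequences show what most members had in common, which is C or G as the base at the site itself. The windows below run from 20 bases before to 9 bases after a member, 5′ to 3′ on the transcribed strand, and the capital is the base at the deposited position. They are the members found in all 4 tables whose times differed most between the buffers by the smallest limma p-value, 5 shorter with sarkosyl and then 5 longer. Sequences were read from GENCODE release 29 transcripts (GRCh38) and from RefSeq promoter records of GRCh38.p14.
HEXIM1 (chr17:45148512-45148541, plus strand): agggaaagtcgggggaggacGcggaagagg
MRPL18 (chr6:159790537-159790566, plus strand): gagtcgtccgtgaggaaaaaGaggcgaggc
TRIM36 (chr5:115169841-115169870, minus strand): cgggattcccggggtagtcgCtgggagcaa
ATP5PO (chr21:33915701-33915730, minus strand): caggtgagagaaaggtggtcCtgagagcca
ALDOA (chr16:30065816-30065845, plus strand): gcgccgcagaaggggtcctgGtgacgagtc
DONSON (chr21:33588565-33588594, minus strand): cgaggtagtgcggctccgacGgaaaagggc
CYB561A3 (chr11:61361785-61361814, minus strand): tcgggagcggcagctccggcGcctggtagc
HNRNPAB (chr5:178204571-178204600, plus strand): tcggtgggttcccgtgcggcGgcggccaag
LAP3 (chr4:17577492-17577521, plus strand): ggggcgagtagtcgtccgacGtctggccgt
RNF4 (chr4:2469180-2469209, plus strand): cttctccggagtgcgccggcGgtggcgcct
All 5 windows of the members longer with sarkosyl carry G at the site with C directly before it. Of the other 5 windows, the HEXIM1 window has this pair. The pair was common: of the 270 members found in all 4 tables with G at the site, 221 had C directly before it.

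The base at a member was C or G in nearly every case, and the balance between them differed between the tables. C was the base of 70.5% and 67.8% of members in the sarkosyl tables, while the sarkosyl-free tables had it in 49.3% and 26.7%. The corresponding shares of G were 28.0% and 28.3%, then 49.6% and 72.0%. Over all bases 0 to 60 bp after the same starts, C made up 29.3% to 30.0% and G 36.0% to 36.8%. The share with C was 69.1% ± 1.94 (SD, n = 2) with sarkosyl and 38.0% ± 16 (SD, n = 2) without it, with both sarkosyl tables above both others. A two-sided exact permutation test over the 4 tables gave p = 0.33, the smallest value that 2 tables against 2 allow. The base could be read for 96.1% to 96.7% of members. Which labelled nucleotides were used in each run-on is not stated in the sources used here. Whether they bear on these shares was not tested.

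The strands gave matching profiles: on the plus strand C or G made up 98.3%, 95.7%, 98.9% and 98.3% at the site, and on the minus strand 98.7%, 96.6%, 99.0% and 99.1%. This alignment is obtained when the deposited positions are read as counting from 1. The pattern was not particular to members. Sites 61 to 100 bp after a start had C in 70.6%, 66.8%, 51.6% and 23.3%, and those over 100 and up to 300 bp in 68.3%, 66.0%, 49.7% and 17.7%.

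Neighbouring bases were uneven too. G stood 3 bases before the site in 54.4%, 48.3%, 51.7% and 55.1% of members, more than its share of the surrounding sequence in every table. C stood directly before the site in 57.1% and 53.6% with sarkosyl and in 36.1% and 42.5% without it. Sarkosyl-free members had G in the second base after the site in 51.2% and 52.3%, against 36.0% and 35.8% with sarkosyl. T directly before the site was scarce in all tables, at 3.82% to 5.94%.

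**Figure D1:**
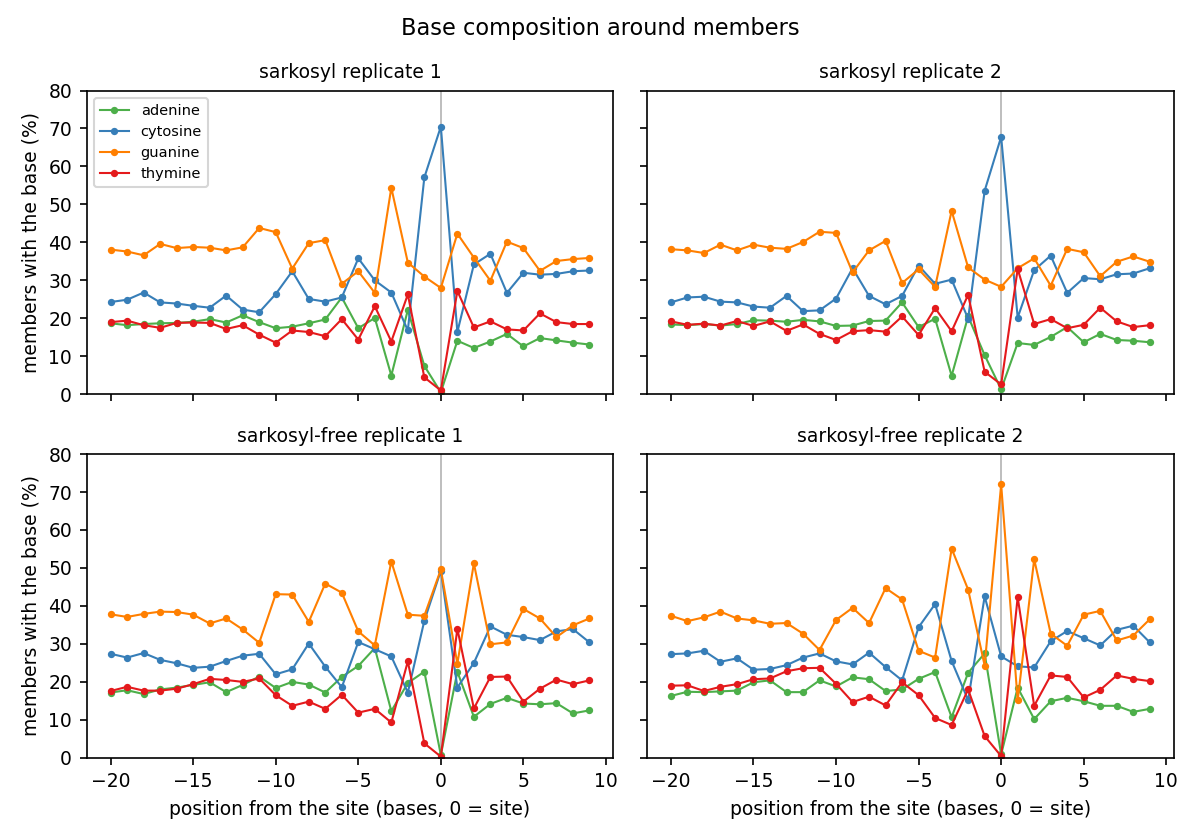
Share of members with each base (y axis, %) at each position from 20 bases before to 9 after the site (x axis), 1 panel per table. Cytosine peaks at the site in both sarkosyl panels (70.5% and 67.8%), guanine peaks there in sarkosyl-free replicate 2 (72.0%), and both are near 49% in sarkosyl-free replicate 1.

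C followed by G, the CG dinucleotide common in CpG islands, was read more often at sarkosyl members than around them. Of C members, 48.5% and 39.8% were followed by G with sarkosyl, where 33.1% and 32.0% of all C bases within 60 bp of the same starts were. Without sarkosyl these shares were 30.4% and 18.7% of C members, against 33.5% and 33.8% of all C bases. Of G members, 75.4% and 73.4% had C before them with sarkosyl and 39.2% and 45.6% without it, where the surrounding G bases had C before them in 26.5% to 27.2%.

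The starts that carried members were GC-rich. The first 61 bases held a median of 67.2% G and C over the 6991 starts with a member in any table and readable sequence, against 60.7% over 120208 of all 135330 coding starts. The motif TATAA, searched on the transcribed strand from 40 to 20 bases before the start, was present at 86 of 6612 starts with a member in any table (1.3%), at 31 of 1018 starts with a member in every table (3.05%), and at 1126 of 71923 coding starts (1.57%), counting starts with readable sequence there. CA across the start (the last base before it and its first base) was present at 13.5%, 13.4% and 16.7% of these sets. A match describes these letters only.

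Members spread over the whole window rather than at 1 distance. The median distance from the start was 32 bp in both sarkosyl tables and 28 bp in both sarkosyl-free tables. The quartiles were 18 and 45 bp, 17 and 46 bp, 15 and 42 bp, and 15 and 44 bp. The commonest single distances were 39, 43, 20 and 30 bp, with 152, 103, 131 and 81 members. Both sarkosyl tables had fewer members in the first 10 bases (11.9% and 12.8%) than the sarkosyl-free tables (15.6% and 15.3%). The 4 bp gap between the medians was larger than the spread between replicates, and the exact permutation test over tables again gave its smallest possible p = 0.33. At the 1127 starts with a member in every table the medians were 32.0, 33.0, 28.5 and 28.5 bp. Distances differed little by base: C members had medians of 32, 31, 28 and 29 bp, and G members of 30, 31, 26 and 27 bp.

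**Figure D2:**
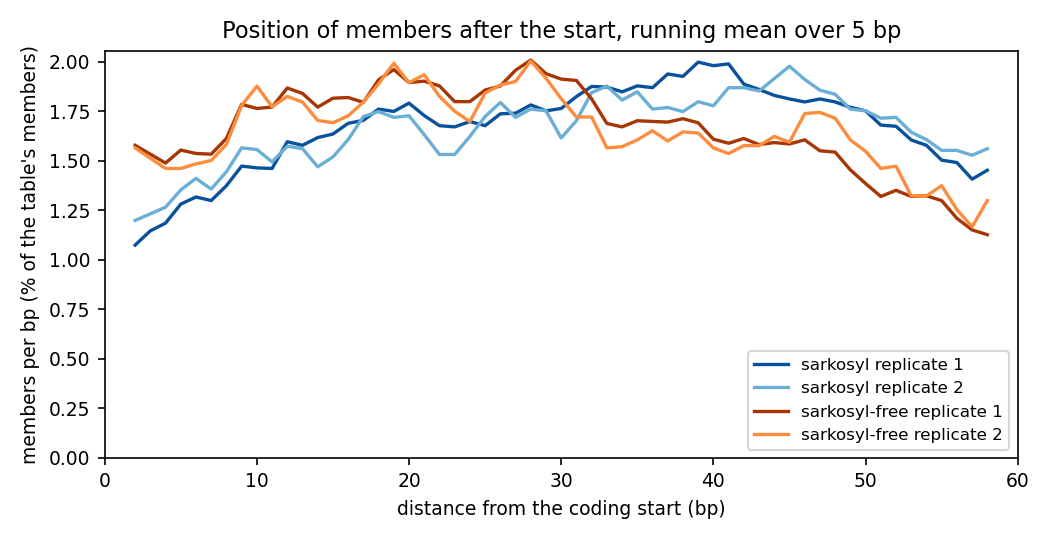
Members per bp (y axis, % of a table's members, running mean over 5 bp) against distance from the coding start (x axis, bp), 1 line per table. The sarkosyl-free lines lie above the sarkosyl lines nearest the start and below them over the second part of the window, with medians of 28 and 32 bp.

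Most members lay in exons, as a rule counting from transcript starts makes likely, and mainly in untranslated sequence. The annotation used does not split this sequence into 5′ and 3′, and the shares of all bases in the window were not computed. Exons of coding genes held 94.8%, 95.1%, 95.6% and 95.6% of members. Sequence that is untranslated in some transcript and coding in none held 67.3%, 66.4%, 67.0% and 67.7%, and sequence coding in at least 1 transcript 23.6%, 24.5%, 24.1% and 23%. Introns held 5.16%, 4.91%, 4.39% and 4.39%. Intron members had longer times than exon members in every table, by 0.36, 0.07, 0.50 and 0.69 on the log2 scale.

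A minority of members lay at the outermost start of their gene, under a rule that counts from all 135330 starts of 19849 coding genes. The share within 60 bp of the outermost start was 19.5%, 18.4%, 23.3% and 23.7%. No share expected from the number of starts was computed. Another 61.1%, 60.7%, 56.4% and 54.8% lay from 61 bp to 1 kb away, at the start of another annotated transcript of the gene. The shares over 1 kb away were 19.5%, 20.9%, 20.3% and 21.5%. Starts of transcript types other than protein_coding alone carried 38.8%, 39.7%, 39.2% and 38.7% of members. Members at the outermost start had shorter times than the rest of the members, with medians of 0.915, 1.02, 1.44 and 4.81 and log2 differences of -0.26, -0.14, -0.33 and -0.51. The sign was the same in the 4 tables.

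Starts usually carried 1 member, each member being counted at its nearest upstream start only. The 6668, 4806, 5806 and 3464 members fell on 4729, 3522, 4533 and 2927 starts, and 71.0%, 74.4%, 77.7% and 84.3% of those starts had a single member. The largest number at 1 start was 6, 7, 6 and 4. For 13.4% and 14.7% of the starts with sarkosyl, a further site was listed 61 to 100 bp downstream with no other coding start between. Without sarkosyl the shares were 7.43% and 6.32%. Sites of the opposite strand within 500 bp upstream, where divergent transcripts begin, were listed for 31.1%, 21.8%, 25.8% and 16.6%. The tables differ in their number of sites, which bears on all of these shares. Times of members alone at their start and of members in company differed by -0.01, -0.12, 0.14 and -0.03 on the log2 scale, with no common sign.

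Members made up a larger share of the sarkosyl tables, 14.3% and 10.5% of rows on chromosomes 1 to 22 and X, than of the sarkosyl-free tables, 9.0% and 8.54%. The means were 12.4% ± 2.66 (SD, n = 2) and 8.77% ± 0.329 (SD, n = 2), with p = 0.33 in the exact permutation test. The sarkosyl tables held no member on the minus strand of chromosome X, where the sarkosyl-free tables held 61 and 41, so no such gene can be compared. On its plus strand there were 89, 68, 87 and 47.

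Members had shorter pausing times than the other sites of every table. Their median time was 1.05 and 1.10 with sarkosyl, against 1.63 and 1.4 for the remaining rows, and 1.71 and 6.33 without it, against 2.30 and 8.33. On the log2 scale members lay -0.64 and -0.36 from the remaining rows in the sarkosyl tables, a mean of -0.50 ± 0.20 (SD, n = 2). They lay -0.43 and -0.40 from them in the sarkosyl-free tables, a mean of -0.41 ± 0.02 (SD, n = 2). The difference was larger than the spread between replicates in both buffers, and it did not separate the buffers (exact permutation p = 1.0). Members below their table's median numbered 66.6% and 67.5% with sarkosyl and 55.5% and 55.1% without it. Among sites whose relative uncertainty (upper over lower quartile of the rate) was at or below the table's median, the sarkosyl mean was -0.16 and the sarkosyl-free mean changed sign to 0.11.

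Members also had shorter median times than the sites next to them in each table, by amounts that depended on how starts were chosen. Sites 61 to 100 bp from a start had median times of 1.54, 1.25, 1.77 and 6.90, and members lay -0.55, -0.19, -0.05 and -0.12 from them on the log2 scale. These gave means of -0.37 ± 0.25 (SD, n = 2) for the sarkosyl tables and -0.09 ± 0.05 (SD, n = 2) for the others. With the 5′ end of the gene record as the only start these means were -0.11 and -0.46, in the opposite order, and among the sites of lower uncertainty the sarkosyl-free mean changed sign to 0.04. Sites over 100 and up to 300 bp had medians of 2.39, 1.52, 2.08 and 7.81, and members lay -1.19, -0.48, -0.28 and -0.30 from those. With the base held the same, C members lay -0.51, -0.22, 0.17 and 0.29 from C sites at 61 to 100 bp, so the sarkosyl-free sign turned, while G members lay -0.44, -0.13, -0.20 and -0.19 from G sites. Whether these differences differ between the buffers was not tested.

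**Figure D3:**
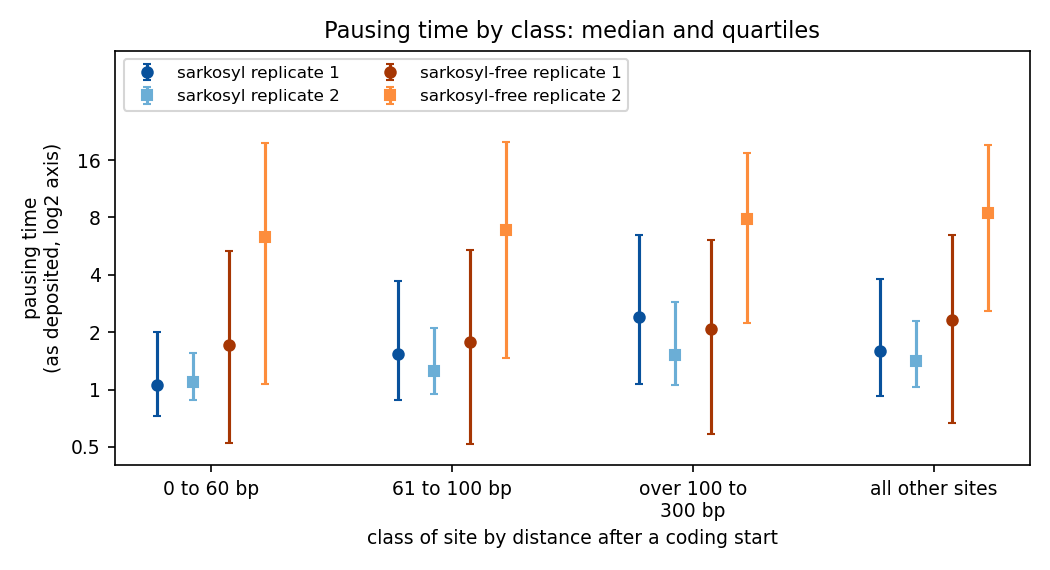
Pausing time as deposited (y axis, log2 scale) by class of site (x axis) in each table, with points at the median and bars from the lower to the upper quartile over sites. The members at 0 to 60 bp have the lowest median of the 4 classes in each table, from 1.05 in sarkosyl replicate 1 to 6.33 in sarkosyl-free replicate 2.

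The spread of times among members was wide without sarkosyl and narrow with it, as it was in the other classes of site. The interquartile range of log2 times was 1.46, 0.82, 3.34 and 4.20 for members. For sites not within 300 bp after a coding start it was 2.03, 1.16, 3.29 and 2.90. The middle 80% of members, from the 10th to the 90th percentile, ran from 0.578 to 4.65 and from 0.754 to 2.60 with sarkosyl, and from 0.293 to 11.1 and from 0.324 to 40 without it. The longest member times were 90.9, 38.5, 125.0 and 333.3. Within the window, members 50 to 60 bp from the start had medians of 1.26, 1.15, 1.93 and 6.33, and those 10 to 19 bp from it 0.992, 1.07, 1.59 and 5.38. At the edge of the rule, the 484, 375, 327 and 225 members at 56 to 60 bp had medians of 1.36, 1.19, 2.08 and 6.10, and the 473, 351, 307 and 175 sites just outside, at 61 to 65 bp, had 1.32, 1.19, 1.84 and 6.71.

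Times followed the base at the site, and most of all without sarkosyl. C members had medians of 1.0, 1.06, 1.36 and 3.41 and G members of 1.08, 1.18, 2.22 and 7.81. G minus C was 0.14 ± 0.04 (SD, n = 2) on the log2 scale with sarkosyl and 0.95 ± 0.35 (SD, n = 2) without it. Both sarkosyl-free tables lay above both sarkosyl tables (exact permutation p = 0.33, the smallest possible). At starts holding both a C and a G member, 594, 384, 508 and 190 starts, the median within-start difference was 0.06, 0.15, 0.71 and 1.84. G was the longer in 313, 234, 305 and 126 of these. The pattern was not particular to members: at sites 61 to 100 bp from a start, G minus C was 0.04, 0.07, 1.08 and 1.68. At sites over 100 and up to 300 bp from a start it was 0.33, 0.23, 0.38 and 1.53.

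The CG dinucleotide went with longer times with sarkosyl and shorter times without it. C members followed by G had medians of 1.24, 1.18, 0.867 and 0.870, and other C members of 0.862, 0.990, 1.77 and 4.16. On the log2 scale the first class lay 0.52 and 0.26 above the second in the sarkosyl tables, and -1.03 and -2.26 from it in the sarkosyl-free tables. G members preceded by C had medians of 1.13, 1.24, 1.04 and 2.65, and other G members of 0.975, 1.05, 3.87 and 15.9, with differences of 0.22, 0.23, -1.89 and -2.58. The sign also held between members of the same start: 0.56 over 410 starts, 0.26 over 250, -1.05 over 129 and -0.32 over 15 for C, and 0.30, 0.43, -2.15 and -2.68 over 64, 45, 152 and 123 starts for G. In sarkosyl-free replicate 2, 8 of the 15 starts for C had the negative sign and 7 the positive one. Sites 61 to 100 bp from a start had the same signs, with 0.64, 0.33, -1.24 and -2.03 for C and 0.17, 0.40, -2.36 and -2.05 for G, as did sites over 100 and up to 300 bp. The difference between buffers was not tested.

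At the ends of the range, members at or below the lower quartile of sarkosyl-free times were in a CG dinucleotide in 46.0% and 56.5% of cases, and members at or above the upper quartile in 17.4% and 16.3%. With sarkosyl the same shares were 40.5% and 34.9% at the short end and 67.3% and 61.4% at the long end. The order of the ends was thus opposite in the 2 buffers in each replicate.

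**Figure D4:**
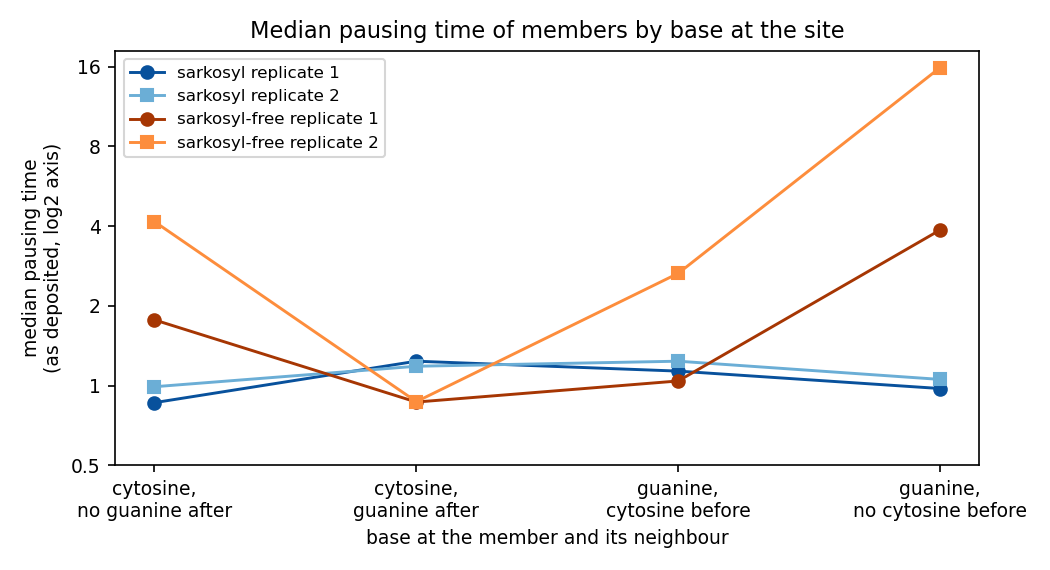
Median pausing time of members as deposited (y axis, log2 scale) for the 4 combinations of the base at the site and its neighbour (x axis), 1 line per table. The sarkosyl lines stay between 0.862 and 1.24, while the sarkosyl-free lines dip at cytosine followed by guanine (0.867 and 0.870) and reach 3.87 and 15.9 at guanine without a cytosine before it.

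Replicates of 1 buffer had more members in common than tables of different buffers, and the ranks of their times were more alike. The pair with sarkosyl had 2491 member positions in common, 37.4% of replicate 1 and 51.8% of replicate 2. The pair without it had 1807, which is 31.1% and 52.2%. A sarkosyl and a sarkosyl-free table had 802 to 1764 in common, 16.7% to 26.5% of the first and 17.1% to 36.1% of the second. Every table listed 490 of the positions, while 9322 were listed once, 3294 in 2 tables and 958 in 3. Over shared positions Spearman's rho was 0.689 between the sarkosyl replicates (n = 2491) and 0.527 between the sarkosyl-free replicates (n = 1807). Among sites of lower uncertainty these were 0.452 and 0.253. Between buffers it was -0.05, 0.04, -0.02 and 0.0059 over 1764, 1249, 995 and 802 positions. These values describe the tables, since positions of 1 gene share their libraries and are not independent. Taking C members or G members alone left the replicate values at 0.667 to 0.687 and 0.518 to 0.536.

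**Figure D5:**
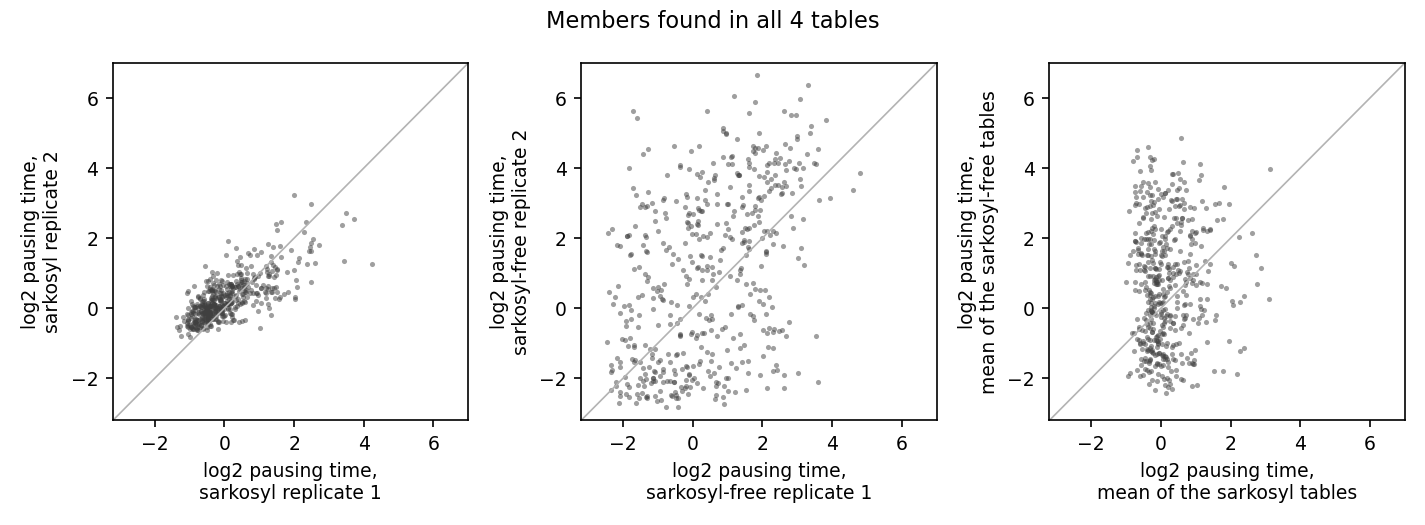
Log2 pausing time of the 490 members found in all 4 tables, as replicate against replicate for sarkosyl (left) and sarkosyl-free (middle) and as buffer means (right), 1 point per position, with the line of equality. The sarkosyl replicates rise together, less steeply than the line (rho 0.689 over all positions they share), the sarkosyl-free replicates scatter more widely, and the buffer means form an upright cloud.

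Single positions were compared between the buffers with limma on log2 times over the 2967 positions that all tables share, of which 490 were members. The Benjamini-Hochberg adjusted p-value was under 0.05 at 0 of the 490 members, with a background of 0.0% of all positions. No adjusted p was smaller than 0.155. Other settings did call members: 33 after quantile normalization, 57 on normal scores and 32 with the replicate number as a block. Of all 2967 positions these settings called 158, 231 and 161. Taking p under 0.05 without adjustment gave 87 members shorter with sarkosyl (17.8% of members, background 11.2%) and 41 longer (8.37%, background 12.0%). The fit had 2 tables against 2. Without sarkosyl-free replicate 1, 319 members passed the adjusted threshold (background 53.8%), and without sarkosyl-free replicate 2, 124 passed (background 22.2%), where the lone table is assumed to vary like the others.

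Among the 490, members outside a CG dinucleotide had the more negative median difference between buffers. The 193 C or G members outside one had median times of 0.782 and 0.976 with sarkosyl and 1.82 and 3.02 without it, and 51 were shorter (26.4%, against 11.2% of all shared positions) and 8 longer (4.15%, against 12.0%) at the unadjusted threshold. The 269 members in a CG dinucleotide had medians of 0.983, 1.24, 1.15 and 1.30, with 34 shorter (12.6%) and 32 longer (11.9%), shares near those of all shared positions. The median log2 differences, after each table was centred, were -0.87 and 0.01. By base, the value in a CG dinucleotide was 0.82 for C (n = 48) and -0.13 for G (n = 221). Outside one it was -0.61 for C (n = 144) and -1.29 for G (n = 49).

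HEXIM1 encodes an inhibitor that, with the 7SK RNA, holds P-TEFb inactive. Its member on chromosome 17 at 45148532 (plus strand, 30 bp after the start, untranslated exon of ENSG00000186834.3) had times of 0.574 and 0.672 with sarkosyl and 27.8 and 14.5 without it. This is a log2 difference of -4.88 (SE 0.77, limma unadjusted p = 0.00085, adjusted p = 0.155). MRPL18, a protein of the mitochondrial ribosome, had 0.708 and 0.838 against 14.3 and 41.7 at chromosome 6 position 159790557, 40 bp after its start. ALDOA, a glycolytic aldolase, had 0.799 and 0.816 against 10.6 and 37.0 at chromosome 16 position 30065836, 45 bp after the start. The windows of these genes are among those shown above.

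TRIM36, a ubiquitin ligase, had 0.503 and 0.661 with sarkosyl and 10.3 and 32.3 without it, 16 bp after the start. ATP5PO, a subunit of the mitochondrial ATP synthase, had 0.631 and 1.03 against 12 and 23.3, 14 bp after the start. The separation of the groups at these 5 members follows from their choice by the limma p. Both sarkosyl times lay below both sarkosyl-free times at 168 of the 490 members (34.3%), against a background of 27.1% of the 2967 positions. limma gave each an adjusted p of 0.155.

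The opposite order was seen at DONSON, a replication fork protein, with 5.59 and 3.66 with sarkosyl against 0.335 and 0.218 without it, 60 bp after the start and so at the edge of the rule (log2 difference 4.20, SE 0.76, limma unadjusted p = 0.00171, adjusted p = 0.155). CYB561A3, a cytochrome b561, had 3.73 and 3.14 against 0.222 and 0.376. HNRNPAB, an RNA-binding protein, had 6.54 and 3.52 against 0.444 and 0.408. LAP3, an aminopeptidase, had 1.54 and 2.23 against 0.218 and 0.215, and RNF4, a SUMO-targeted ubiquitin ligase, had 2.36 and 3.53 against 0.383 and 0.215. The adjusted p was 0.155 for each, and these too were chosen by the limma p. Both sarkosyl times lay above both others at 106 of the 490 members (21.6%), against a background of 29.2%.

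The members present in all tables were also ranked by the mean of their 4 within-table percentiles. The longest was in an intron of MLLT10, a transcription cofactor, on chromosome 10 at 21534521, with 13.2 and 5.81 with sarkosyl and 24.4 and 10.3 without it. TBCA, a tubulin-folding cofactor, followed with 5.18, 2.42, 7.58 and 16.1, and then the histone gene HIST1H2AC with 2.35, 2.06, 6.13 and 50. TVP23C had 3.0, 3.41, 1.82 and 35.7, and its time in sarkosyl-free replicate 1 was under the middle of that table, at percentile 45.6. DUS4L had 2.43, 1.9, 6.25 and 25.6, and like MLLT10, TBCA and HIST1H2AC it was above the middle of each table. The shortest was in untranslated sequence of ACOT8, a peroxisomal thioesterase, with 0.390, 0.691, 0.402 and 0.169.

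The next shortest were HIST1H2BD (0.415, 0.705, 0.488 and 0.159), the origin recognition gene ORC3 (0.486, 0.797, 0.349 and 0.251), HIST1H2AH (0.656, 0.657, 0.368 and 0.186) and DEDD2 (0.770, 0.698, 0.180 and 0.510). The 5 shortest were at or below percentile 19.3 in each table. The windows that could be read for 4 of the long and 4 of the short members are printed for comparison with those above.
TBCA (chr5:77776206-77776235, minus strand): agatcaagatcaagaccggcGtggtgaagc
HIST1H2AC (chr6:26124223-26124252, plus strand): tctgattgcaatgtctggacGtggtaagca
TVP23C (chr17:15563474-15563503, minus strand): ccgtacgctgctgcgctgacGtggctcctg
DUS4L (chr7:107564070-107564099, plus strand): agtgggcgcccagggtccgaGtgctctgcg
ACOT8 (chr20:45857317-45857346, minus strand): cgggtgtgcagggcctgcagCattgaacta
HIST1H2BD (chr6:26158132-26158161, plus strand): caggtgtttgcaacagtgttCtaactatta
ORC3 (chr6:87590148-87590177, plus strand): atacgcagagtcagtaagacCatggctacg
DEDD2 (chr19:42217633-42217662, minus strand): tcgcccaggagtcatcggacGccagaatct
The 4 long members have G at the site with T after it. Over all members, T stood directly after the site in 27.2%, 33.0%, 34.0% and 42.3%. Of the 5 short members, ACOT8, HIST1H2BD and ORC3 have C at the site, and DEDD2 and HIST1H2AH have G.

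The members belonged to 6068 coding genes, and 1233 genes had a member in every table. By table, 20.9%, 15.4%, 19.9% and 13.4% of the 19849 coding genes were represented. The tissue check was limited: of 7 HEK293 markers only VIM had members in both sarkosyl tables and in sarkosyl-free replicate 1 (2, 2 and 3), and NEFL had 1 in sarkosyl-free replicate 2. PAX2, LHX1, NEFM, INA and CDH2 had none within 300 bp of a start. Of 7 markers of other cell types, among them PTPRC, ALB and GFAP, none had a site there in any table.

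NOP56, a core protein of box C/D small nucleolar particles, had the most members, 40 over the tables at 20 positions. Next came EIF4A1, an RNA helicase of translation initiation, with 34, the splicing regulator HNRNPH1 with 31, RBM39 with 26, EIF4A2 and the ribosomal protein RPSA with 24 each, and HNRNPU and RPS16 with 23 each. The median times of NOP56 members were 1.81, 1.22, 2.02 and 5.33, and those of EIF4A1 1.58, 1.38, 1.39 and 7.80. Both genes were thus near the middle of their tables, with medians of members at percentile 38.1 to 56.4 of all rows for NOP56 and 40.2 to 51.0 for EIF4A1. HNRNPU members were at the 39.4, 41.9, 47.8 and 89.6 percentile, and stood high in sarkosyl-free replicate 2.

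All tables listed 4 NOP56 positions, and these were of different kinds.
NOP56 at 38 bp (chr20:2652667-2652696, plus strand): aggagtggttgcggggcgcgGgcgacgcga
NOP56 at 44 bp (chr20:2652673-2652702, plus strand): ggttgcggggcgcgggcgacGcgacggtgg
NOP56 at 52 bp (chr20:2654266-2654295, plus strand): tgtctccatgtctctgagcaAtgcctgatg
NOP56 at 22 bp (chr20:2656161-2656190, plus strand): cagtcctggtgtctgagtgaTtcccagggc
The first pair lay after the transcript start at 2652649. Their times were 0.654 and 0.883 with sarkosyl against 2.89 and 2.84 without it, and 0.742 and 0.799 against 2.02 and 7.81. The remaining pair lay after internal transcript starts and fell within small nucleolar RNA genes encoded in the introns of NOP56. The member at 2654286 was the last annotated base of SNORD110, with times of 2.68, 1.86, 0.939 and 1.05. The member at 2656181 was 1 base before the last base of SNORD86, with 1.81, 1.77, 3.08 and 17.9. Their bases were A and T, unlike most members.

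Small RNA genes (snoRNA, scaRNA, snRNA and miRNA, with 5 bp past the 3′ end) held 34, 28, 34 and 28 members, 0.51%, 0.583%, 0.586% and 0.808%. Of the other rows on the same chromosomes they held 1.33%, 1.17%, 1.08% and 1.41%, a higher share in each table than that of members, in a comparison that was not tested. Of these members 20, 16, 17 and 17 lay within 5 bp of the 3′ end of the small RNA. Members with A or T at the site numbered 97, 180, 60 and 45, and 11, 9, 15 and 14 of those were in small RNA genes. The median time of members in small RNA genes lay 0.67 and 0.34 above that of other members with sarkosyl, and -1.38 and -1.93 from it without sarkosyl.

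Genes of the gene expression machinery were described by lists, and these counts are a description with no test. Most cytosolic ribosomal protein genes were represented, with a member in 73, 69, 67 and 59 of 80 genes (91.2%, 86.2%, 83.8% and 73.8%), and 48 of them in every table. Their member times differed from those of all members by 0.29, -0.0032, 0.51 and 0.67 on the log2 scale. RPS16 had medians of 4.23, 1.16, 2.14 and 3.20 (percentiles 74.1, 37.1, 49 and 29.5). RPSA had 0.954, 1.33, 1.81 and 29.6, and RPS14 had 0.993, 1.22, 2.56 and 11.0. Mitochondrial ribosomal proteins had members in 36, 18, 32 and 23 of 78 genes, with differences of 0.31, 0.12, -0.17 and 0.56.

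Replication-dependent histones, which are made in S phase from short intronless genes, had members in 43, 41, 43 and 30 of 71 genes. Their times were 0.42 above all members in sarkosyl replicate 1 and -0.09 from them in replicate 2, and -0.68 and -2.73 from them without sarkosyl. Members under the median of all members numbered 43 of 110, 64 of 112, 53 of 83 and 40 of 56. HIST1H2AH had medians of 0.794, 0.971, 0.677 and 0.381, and HIST1H2BD of 0.785, 0.917, 0.642 and 0.212. HIST2H4A had 1.04, 0.940, 0.427 and 0.182 and its near-identical copy HIST2H4B 0.907, 0.911, 0.592 and 0.161. How reads that match several copies were placed is not given in the sources used here, so histone values are uncertain by gene.

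RNA-binding proteins of splicing fell on different sides. hnRNP genes, with members in 15, 12, 14 and 9 of 26 genes, had times above all members in the 4 tables, by 0.34, 0.23, 0.59 and 0.72. Among them HNRNPH1 had medians of 2.47, 1.55, 3.79 and 1.43. The last of these rests on 3 members and was below the 6.33 of all members in sarkosyl-free replicate 2. SR protein genes, with members in 8, 11, 10 and 8 of 12 genes, lay -0.18 and -0.21 from all members with sarkosyl and 0.25 and 0.98 above them without it. SRSF3 had 0.783 and 1.11 with sarkosyl and 2.47 and 33.3 without it, whereas SRSF5 had 1.19, 0.952, 0.912 and 0.830. These lists rest on 17 to 48 members in a table.

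Translation factors had members in 34, 30, 33 and 27 of 68 genes and no common sign, with differences of 0.50, -0.04, -0.44 and -0.05. EEF1A1, the elongation factor that brings tRNA to the ribosome, had medians of 0.668, 0.766, 4.18 and 6.49. Heat shock proteins and chaperones lay -0.53 and -0.82 from all members without sarkosyl and 0.06 and -0.05 with it. HSP90AA1 was under the median of each table, at the 17.9, 9.08, 35.0 and 16.7 percentile. Other genes of the list were not: HSPA9 was at 96.2, 67.3, 33.7 and 35.1, and DNAJA1 at 53.5, 60.6, 68.7 and 31.5. TCP1 was at 25.6, 51.0, 13.4 and 59.1. Zinc finger genes, the largest list with 509 genes, stayed within 0.21 of all members in each table (-0.10, -0.0039, -0.21 and 0.07). Proteasome subunits had 24, 23, 23 and 9 members and differences of 0.33, 0.07, -1.03 and 0.59.

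Immediate early genes, a class known for paused polymerase, had members in 12, 10, 12 and 5 of 20 genes. Their times lay -0.13 and -0.28 from all members with sarkosyl, and -1.18 and 2.22 without it, where replicate 2 rests on 7 members. The replicates without sarkosyl thus had opposite signs.

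The genes that encode the pause and elongation machinery had members in 10, 10, 11 and 7 of 23 genes, and their median differed from all members by -0.29, -0.08, -0.26 and 0.41. HEXIM1 had 3, 3, 3 and 2 members with medians of 0.781 and 0.713 with sarkosyl and 27.8 and 23.9 without it. SUPT5H, a subunit of DSIF, had the reverse order, with 1.93 and 1.6 against 1.01 and 0.271. NELFCD, a subunit of NELF, had 1.02 and 0.783 against 2.05 and 2.26. The tables differ in scale, and by percentile within each table NELFCD stood at 31.7, 8.12, 47.3 and 22.7, so its buffers overlapped. By percentile HEXIM1 stood at 18.5, 2.3, 98.5 and 77.6, and SUPT5H at 58.3, 59.3, 33.9 and 2.71. ELL2, an elongation factor, had 0.763, 1.39, 0.336 and 0.696. These medians rest on 1 to 4 members a table.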

How the data were processed

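The deposited values are 4 space-separated tables, 1 per buffer and replicate. Per the file headers, each row gives a position, a strand, and the mean, quartiles and median of an estimate with a pausing time, which was the reciprocal of the deposited median (called the rate, given to 3 decimals). Per the submitters' processing notes, cutadapt 1.14, HISAT2 2.1.0, SAMtools, bedtools and the build hg38 were used. The fitted model and the rule for calling sites are not given in the sources used here. All per-table columns used were mapped (0 left unmapped).

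Transcript starts were those of GENCODE release 29. Bases came from its transcripts and from RefSeq promoter records, which had 0 conflicts over 13642414 bases covered more than once. Medians were compared within tables, and replicate error is the SD over 2 tables. The design text calls the replicates biological duplicates. limma 3.58.1 in R 4.3.3 was fitted over all shared positions (log2 times, each table centred on its median, Benjamini-Hochberg threshold 0.05). The fit was also run on simulated data, and that outcome is not reported here. Python 3.11.15, pandas 2.3.3, numpy 2.4.6 and matplotlib 3.10.9 were used.

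The members, gene lists and rules were chosen with earlier results of these data known. The members named singly are the 5 longest and 5 shortest by mean percentile among those present in all tables, and the 5 with the smallest limma p in each direction. Genes named are the 8 with most members and up to 4 per list. The counts of groups that do not overlap, the CG dinucleotide, small RNA and annotation descriptions, the positions of NOP56 and the comparisons by base were added after seeing the data.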

Additional observations from a re-analysis of the deposited data

Results flagged for a closer look

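Of 28 differences examined, 9 of them added after seeing the data, 7 had 1 sign in both sarkosyl tables and the opposite sign in both sarkosyl-free tables. The difference between buffers was not tested in any of these cases, and several rest on the same members. Values are log2 differences of medians for sarkosyl replicates 1 and 2 and then sarkosyl-free replicates 1 and 2.

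C members followed by G against other C members gave 0.52, 0.26, -1.03 and -2.26, and within the same start 0.56, 0.26, -1.05 and -0.32. G members preceded by C against other G members gave 0.22, 0.23, -1.89 and -2.58, and within the same start 0.30, 0.43, -2.15 and -2.68. Sites 61 to 100 bp and over 100 and up to 300 bp from a start had the same signs in both comparisons of medians by CG dinucleotide. C members against C sites 61 to 100 bp from a start gave -0.51, -0.22, 0.17 and 0.29. Members in small RNA genes against other members gave 0.67, 0.34, -1.38 and -1.93, over 28 to 34 members a table. SR protein genes against all members gave -0.18, -0.21, 0.25 and 0.98, over 17 to 27 members.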

How the results depend on the processing

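Of 80 alternatives to 10 results, 50 gave a value within the replicate SD, a Fisher-transformed interval around rho or 1.5 times a count. The sign turned in 3 and the value moved by more in 27. With 2 tables a buffer, leaving out a table cannot move a mean beyond its SD, so those cases say nothing about stability. The cause of the changes was not tested unless stated.

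Keeping only sites with relative uncertainty at or below the table's median gave member levels of -0.162 with sarkosyl and 0.106 without it. The sarkosyl-free difference from sites at 61 to 100 bp was then 0.037, and rho was 0.452 and 0.253. In limma, the more certain shared positions gave 48 of 294 members at an unadjusted p under 0.05, and 223 of all 1484 positions fitted. Starts of protein_coding transcripts only gave shares of 9.67% and 6.95% by construction, a sarkosyl-free level of -0.465 and a difference from 61 to 100 bp of -0.167. The 5′ end of the gene record only gave shares of 2.46% and 2.14% by construction, a sarkosyl-free level of -0.716, differences from 61 to 100 bp of -0.111 and -0.462, and a sarkosyl-free rho of 0.574. The sarkosyl-free level was -0.436 on the plus strand, -0.338 with 1 value per gene and -0.362 for means. Among sites of the same base up to 300 bp, an addition made after seeing the data, it was 0.0649 for C and -0.132 for G.

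Leaving out each table gave levels of -0.637 to -0.355 and -0.426 to -0.397, and differences from 61 to 100 bp of -0.551 to -0.191 and -0.124 to -0.0515. In limma it gave 0 to 319 members past the adjusted threshold and 22 to 351 past the unadjusted one. Quantile normalization gave 33 members past the adjusted threshold (158 of all 2967 positions) and normal scores 57 (231 of all). The replicate numbers did not pair the tables, as replicate differences correlated at 0.0134 over 2967 positions. A fit with the replicate number as a block gave 32 members past the adjusted threshold (161 of all positions). It gave 124 members past the unadjusted one (611 of all positions). Read depth is unknown, and what it limits could not be computed.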
